A study of Drosophila melanogaster with 6 samples.

Results

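Axon guidance and neuronal adhesion genes encode the ligands, receptors, adhesion molecules and cytoplasmic effectors with which growing axons find and hold their targets. They were followed here as a list of 41 named Drosophila melanogaster genes. A gene was measured when at least 1 probe set, a group of short oligonucleotides on the array, was annotated to that gene alone, and each gene was read from its brightest such probe set. Of the 41 genes, 32 were measured, among 10844 genes measured in all. Sema2a, NetA, Wnt5, PlexA, robo2, robo3, Fas3, dock and Rac1 were not analysed here.

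The RNA came from whole brains of adult females of CantonS, a wild-type strain, kept on corn meal food at 25 °C. Brains labelled as mushroom body-ablated were measured on 3 arrays (ablated 4, 5 and 6), and untreated brains on 3 arrays (control 1, 2 and 3). For the ablation, larvae that had just hatched were given hydroxyurea, an inhibitor of DNA synthesis, at 25 mg/ml in yeast paste for 4 h. The drug reached every ablated sample and no control sample, so other effects of hydroxyurea and the loss of the mushroom bodies cannot be told apart. No label gives the number of brains behind an array or ties arrays to separate cultures, and p-values therefore cover only sample-to-sample spread, part of which may be technical.

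Guidance works through pairs. Netrins act through Frazzled and Unc-5, Slit through the Robo receptors, semaphorins through plexins, ephrins through Eph and Wnt5 through Derailed. Receptors and adhesion molecules pass the signal to kinases, Rac activators and actin regulators in the growth cone. Several of these genes are known for roles in the mushroom body, the learning centre built by the Kenyon cells. Dscam1 keeps sister branches of Kenyon cell axons apart, and Nrg, drl, trio and Eph are needed for the axons to form normal lobes. The comparison of ablated and control brains asks which of their transcripts differ in an adult brain after this ablation. In whole brains, fewer cells of a type and less RNA per cell cannot be told apart.

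Signals are given on a linear scale after each array was multiplied by a single factor, between 0.855 and 1.129, that sets its trimmed mean to a common level. Differences are log2(ablated) minus log2(control) with an offset of 2.71 added to each signal, which understates the change of dim genes. Genes whose mean signal reached 9.22 were tested with limma, and p-values were adjusted over 8380 probe sets by the Benjamini-Hochberg method. All 5 measured neuron and glia markers (elav, nSyb, brp, para and repo) were above that level in both groups, and their summed signal was 756 to 879 on ablated and 742 to 913 on control arrays. Most of that sum was nSyb, at 463 to 537 on ablated and 427 to 581 on control arrays. The differences of the 5 markers ran from -0.30 for elav to 0.25 for brp, all with overlapping groups. The Pax6 gene ey, needed for mushroom body development, read 113, 111 and 121 in ablated brains and 229, 188 and 203 in control brains. It was chosen as a check, as 1 of 8 measured Kenyon cell markers of which 4 (ey, toy, prt and dnc) lay lower on every ablated than on every control array. Of all tested genes, 6.47% did so. The other 4 markers, rut, dac, mamo and sNPF, had overlapping groups, with differences of -0.04, -0.17, 0.06 and -0.14. The filter let prt in through its control arrays (mean 8.80 in ablated and 22.9 in control brains). For ey the adjusted p was 0.758 (limma), the lowest reached by any gene tested, a value it shared with a gene of smaller unadjusted p. Markers of other tissues differed between arrays. The summed signal of 8 measured antennal genes was 149, 1563 and 172 on ablated 4, 5 and 6 against 59 to 74 on control arrays, and 6 of them averaged above 9.22 in ablated and 2 in control brains. The sum of 10 muscle genes was 252, 1332 and 247 on ablated 4, 5 and 6 and 103, 653 and 94 on control 1, 2 and 3. Sums of 8 fat body genes (16312 to 23041 on ablated, 11915 to 22441 on control arrays) and of 6 photoreceptor genes (420 to 1391 and 114 to 1452) overlapped. None of these markers was listed at 0.

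No guidance or adhesion transcript passed the adjusted test between ablated and control brains, and for most of them a 1.5-fold change was not resolved. Of the 32 measured genes, 27 were tested, and 0 of them had an adjusted p under 0.05 in limma, where 0% of the 8380 probe sets did. At an unadjusted p under 0.05, 2 were lower (Sema1a and fra) and 0 were higher, against 2.56% and 2.49% of the 6866 tested genes. Every ablated array lay below every control array for 3 members, Sema1a, fra and Con, which is 11.1% of those tested, beside 6.47% of all tested genes. Every ablated array lay above every control array for Nrg and trn, 7.41% of those tested, beside 4.69% of all tested genes. The filter let comm in through its ablated arrays (mean 15.3 in ablated and 8.58 in control brains) and Pak through its control arrays (8.79 and 11.6). The shares without overlap, and the share lower at an unadjusted p under 0.05, lie above the background. Each rests on 3 genes or fewer, so they say nothing particular about the list.

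The 27 tested members had a median log2 difference of -0.08, beside -0.02 over all tested genes, with 17 below 0 and 10 above, where 52.7% of all genes lay below 0. Their differences ran from -0.59 for Sema1a to 0.67 for robo1. With the offset included, these were the only members at least 1.5-fold apart, beside 6.5% of all genes. Without the offset, mean signals of comm (15.3 in ablated and 8.58 in control brains) and fra (21.7 and 32.6) were also at least 1.5-fold apart. The 95% interval of the difference lay within a 2-fold change in either direction for 22 of the 27 members, beside 79.7% of all genes. It lay within a 1.5-fold change for 7, namely drl, Dscam1, Nrg, Nrt, Con, CadN and kek1, beside 36.7% of all genes. For these 7 genes a change of 1.5-fold in the whole brain lies outside the interval of the brightest probe set. For Sema1a, PlexB, robo1, comm and Pak even a 2-fold change lies inside the interval.

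**Figure D1:**
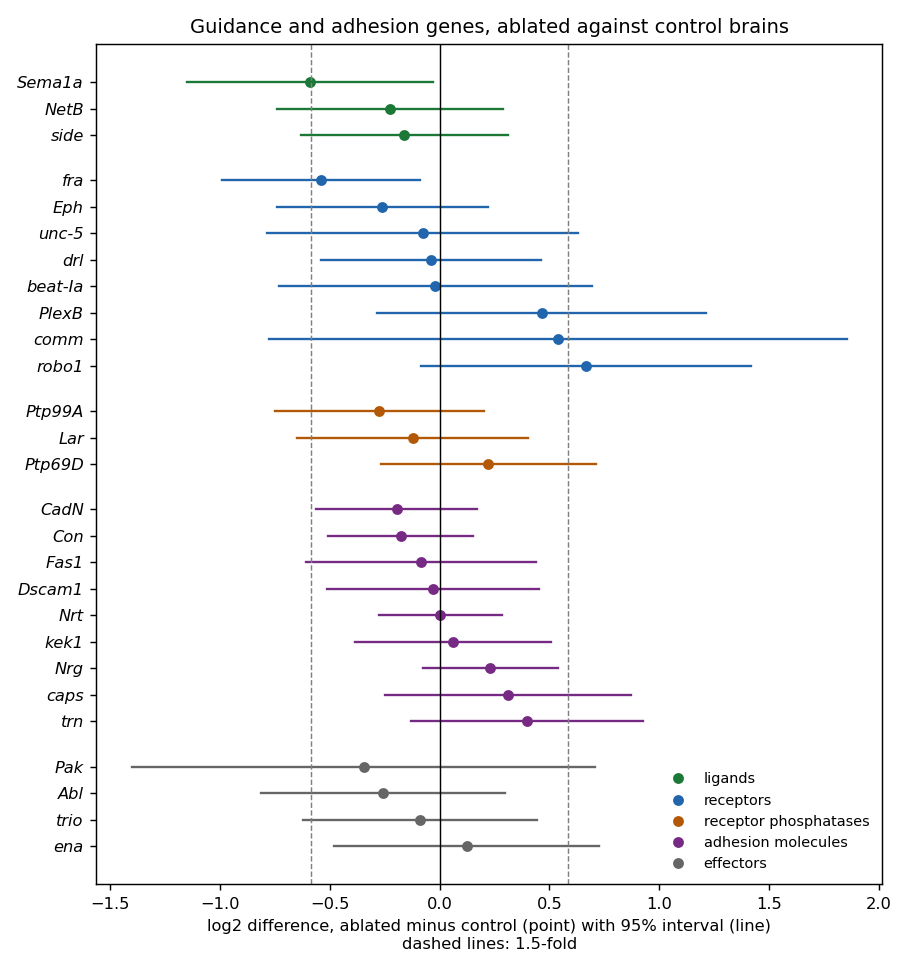
Ablated minus control log2 difference (x axis) of the 27 tested members, one per row and grouped by role, with points for the estimate and lines for the 95% interval from limma (n = 3 arrays per group). The intervals of Sema1a and fra alone leave out 0, and the dashed lines mark 1.5-fold.

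**Figure D2:**
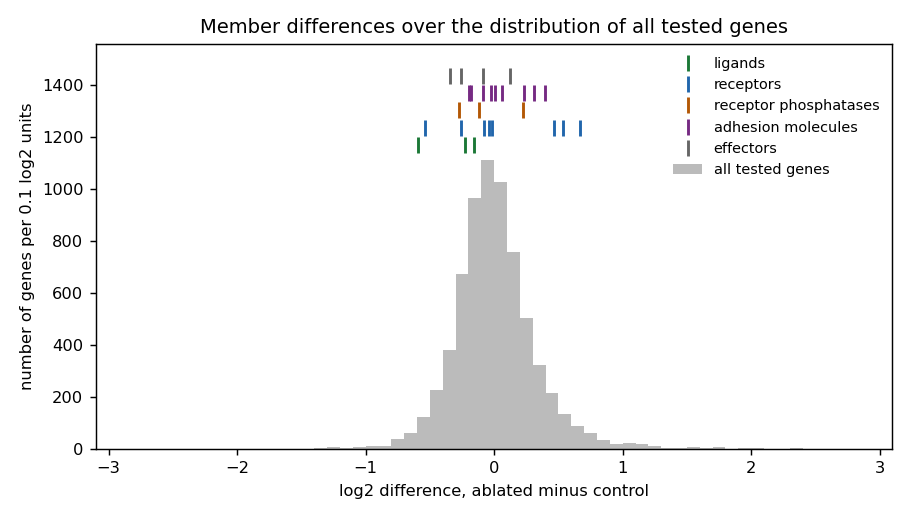
The number of genes (y axis) by ablated minus control log2 difference (x axis, bins of 0.1) for all 6866 tested genes, with a coloured tick for each of the 27 members above the bars. The members span -0.59 to 0.67, inside the spread of all genes.

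Among the ligands, Sema1a had the largest difference. Sema1a (143641_at), a transmembrane semaphorin that repels or steers axons through Plexin A and can act as a receptor itself, read 10.7, 9.8 and 10.4 in ablated brains and 17.4, 14.2 and 19.3 in control brains. All ablated arrays lay close together and below the lowest control array. The mean was 10.3 ± 0.428 in ablated and 17.0 ± 2.56 in control brains (SD, n = 3 each), a log2 difference of -0.59 (SE 0.25) with an unadjusted p of 0.0415 and an adjusted p of 0.839 (limma). Its signal lies just above the level for testing, so its values are among the less firm of the list.

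NetB (151503_at), a secreted netrin, read 102, 59.8 and 94.1 in ablated brains and 115, 79.5 and 103 in control brains. The groups overlapped, and ablated 5 was the lowest array (log2 difference -0.23, 95% interval -0.74 to 0.29). The gene side (151096_i_at), whose product on target cells is recognised by the Beat-Ia receptor of motor axons, read 38.6, 38.0 and 25.9 in ablated brains and 42.7, 31.5 and 40.5 in control brains. These groups overlapped too, with a difference of -0.16 (SE 0.21). The ligand genes sli, which encodes Slit, and Ephrin were below the level for testing. Their signals were 0.7 to 2.0 in ablated and 0.7 to 2.5 in control brains for sli, and 2.3 to 6.1 in ablated and 2.6 to 5.0 in control brains for Ephrin.

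Among the receptors, fra had the smallest p of all tested members. The gene fra (143665_at) encodes Frazzled, the netrin receptor of the DCC family that mediates attraction. It read 25.5, 17.5 and 22.0 in ablated brains and 30.9, 37.2 and 29.6 in control brains, so the groups did not overlap. The mean was 21.7 ± 4.03 in ablated and 32.6 ± 4.09 in control brains (SD, n = 3 each), a log2 difference of -0.54 (SE 0.20) with an unadjusted p of 0.0240 and an adjusted p of 0.839 (limma). Its 95% interval ran from -0.99 to -0.09. The other netrin receptor, unc-5 (151656_at), which mediates repulsion, averaged 15 ± 6.35 in ablated and 15.1 ± 0.763 in control brains (SD, n = 3 each). Its difference of -0.08 has an interval from -0.78 to 0.63, so its change relative to that of fra is not resolved. Whether fra and unc-5 differ from each other was not tested.

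The receptor with the largest difference upward was robo1 (143562_at), which encodes the Slit receptor that keeps axons from crossing the midline. It read 36.1, 35.4 and 19.3 in ablated brains and 25.5, 19.1 and 10.5 in control brains. The groups overlapped, since ablated 6 lay below control 1, and the difference was 0.67 (SE 0.33) with an unadjusted p of 0.0750 and an adjusted p of 0.839 (limma). The gene comm (143583_at), whose product keeps Robo off the growth cone surface, read 16.6, 25.5 and 3.7 in ablated brains and 4.8, 5.8 and 15.1 in control brains. Both groups held high and low arrays, and the interval of its difference, -0.77 to 1.85, was the widest of the members. PlexB (144090_at), a plexin that receives secreted semaphorins, read 19.2, 12.8 and 10.4 in ablated brains and 9.9, 6.4 and 11.9 in control brains, with overlap and a difference of 0.46 (SE 0.33).

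The remaining tested receptors all had groups that overlapped. Eph (144106_at), the ephrin receptor tyrosine kinase, averaged 64.6 ± 16.8 in ablated and 76.8 ± 12.2 in control brains (SD, n = 3 each), a difference of -0.26 (SE 0.21, 95% interval -0.74 to 0.22). Derailed, encoded by drl (154716_at), is the Wnt5 receptor of the Ryk family, and drl averaged 69.6 ± 14.0 in ablated and 72.0 ± 16.8 in control brains (SD, n = 3 each). Its difference of -0.04 has an interval from -0.54 to 0.46. The motor axon receptor gene beat-Ia (143710_at) differed by -0.02 (SE 0.31, 95% interval -0.73 to 0.69) at a signal of 7.6 to 10.9 in ablated and 8.7 to 10.2 in control brains, close to the level for testing.

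Receptor tyrosine phosphatases on axons take part in pathway choice and fasciculation, and the 3 of their genes that were tested differed by -0.27 to 0.22. Ptp99A (143448_at) had the smallest p of these and read 97.7, 80.3 and 73.8 in ablated brains and 136, 79.8 and 96.0 in control brains. Control 1 stood above the other arrays and the groups overlapped, with a difference of -0.27 (SE 0.21) and an unadjusted p of 0.226 (limma, adjusted p = 0.851). Lar (155117_at) differed by -0.12 (SE 0.23) and Ptp69D (143741_at) by 0.22 (SE 0.22), both with overlap.

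Of the adhesion molecules, Nrg, trn and Con had groups that did not overlap, and all 3 differences were below 1.5-fold. Nrg (151921_at) encodes Neuroglian, the fly member of the L1 family. It read 87.0, 90.8 and 90.7 in ablated brains and 73.1, 73.3 and 81.2 in control brains. Its mean was 89.5 ± 2.18 in ablated and 75.9 ± 4.60 in control brains (SD, n = 3 each), a difference of 0.23 (SE 0.14) with an unadjusted p of 0.121 (limma, adjusted p = 0.839). The interval from -0.07 to 0.54 lies within 1.5-fold on both sides. The leucine-rich repeat gene trn (152335_at) read 20.9, 19.5 and 16.1 in ablated brains and 11.1, 15 and 15 in control brains, a difference of 0.40 (SE 0.23). Its relative caps (143972_at), which shares with trn a role in target recognition, read 32.5, 21.0 and 18.8 in ablated brains and 19.1, 21.2 and 15.2 in control brains. Here the groups overlapped, with ablated 4 the highest array and a difference of 0.31 (SE 0.25).

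Connectin, a leucine-rich repeat protein known from motor axons and muscles, is encoded by Con (152589_at). It read 96.8, 96.2 and 95.6 in ablated brains and 127, 99.4 and 103 in control brains. The ablated arrays were nearly equal and control 2 lay just above them, so the separation of the groups is narrow (difference -0.18, SE 0.15, unadjusted p = 0.257, adjusted p = 0.854 in limma). After quantile normalization or cyclic loess the groups of Con overlapped. Those of Nrg overlapped in the deposited values and with median-centred arrays.

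**Figure D3:**
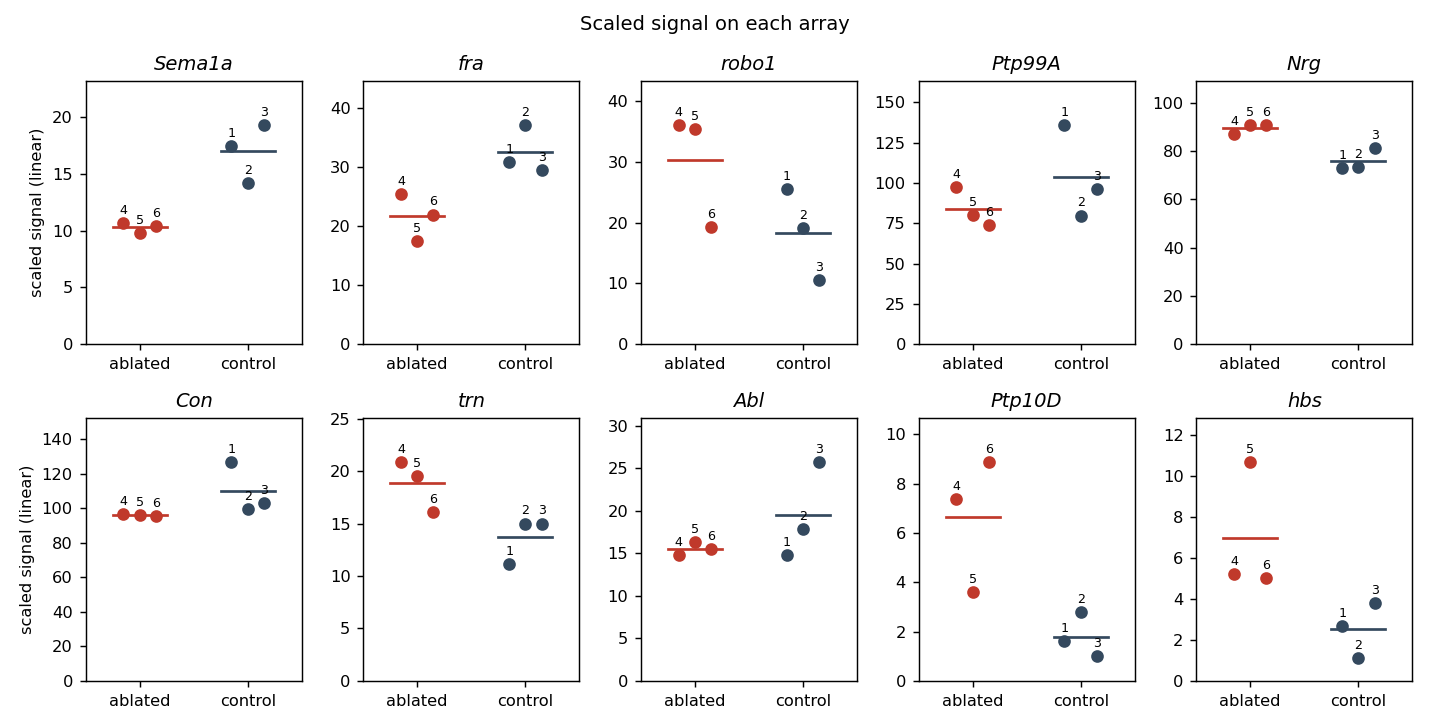
Scaled signal (y axis, linear, from 0) on each array for 10 members, with the ablated arrays 4, 5 and 6 in red on the left and the control arrays 1, 2 and 3 in dark blue on the right of each panel, and a line at each group's mean. Groups do not overlap for Sema1a, fra, Nrg, Con, trn, Ptp10D and hbs, and overlap for robo1, Ptp99A and Abl.

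The other tested adhesion genes had overlapping groups. Nrt (151661_s_at), which encodes the adhesion protein Neurotactin, was the steadiest of all tested members at 190, 201 and 177 in ablated brains and 195, 187 and 185 in control brains. Its difference was 0.00 with an interval from -0.27 to 0.28, the narrowest among the members. Dscam1 (142519_at), whose many splice forms let Kenyon cell axon branches recognise and avoid themselves, averaged 37.5 ± 6.61 in ablated and 38.5 ± 8.24 in control brains (SD, n = 3 each). Its interval from -0.51 to 0.45 lies within 1.5-fold. A dimmer tested probe set of Dscam1, 151601_at, differed by 0.13 (SE 0.42) with a wider interval, from -0.81 to 1.08. CadN (143829_at), encoding N-cadherin, differed by -0.20 (SE 0.16), Fas1 (154333_at) by -0.08 (SE 0.23) and kek1 (141473_at), a leucine-rich repeat inhibitor of the EGF receptor, by 0.06 (SE 0.20). The difference of CadN is no smaller than that of Con.

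The cytoplasmic effectors gave no separation. Abl (143054_at), a tyrosine kinase downstream of guidance receptors, read 14.8, 16.3 and 15.5 in ablated brains and 14.8, 17.9 and 25.8 in control brains. Control 3 alone stood apart, and the difference was -0.26 (SE 0.24, unadjusted p = 0.322, adjusted p = 0.869 in limma). The actin regulator gene ena (154185_at), whose product opposes Abl in genetic tests, differed by 0.12 (SE 0.26). Its signal was 25.9, 16.7 and 22.4 in ablated brains and 26.4, 19.6 and 13.9 in control brains. The kinase gene Pak (153976_at) read 13.8, 8.8 and 3.7 in ablated brains and 13.3, 5.8 and 15.8 in control brains, so a low and a high array occurred in each group. The Rac activator gene trio (147954_at) averaged 22.3 ± 5.99 in ablated and 23.4 ± 2.74 in control brains (SD, n = 3 each).

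Ptp10D, hbs, stan, sli and Ephrin were measured but dimmer than the level for testing. For Ptp10D (143449_at), a receptor phosphatase of the nervous system, the signal was 7.4, 3.6 and 8.9 in ablated brains and 1.6, 2.8 and 1.0 in control brains. For hbs (147231_at), an immunoglobulin protein of cell recognition and muscle fusion, it was 5.2, 10.7 and 5.0 in ablated brains and 2.7, 1.1 and 3.8 in control brains. In both genes every ablated array lay above every control array. With no filter this held for 4 of 32 members, Ptp10D, hbs, Nrg and trn, beside 5.58% of all measured genes. No share was computed over dim genes alone, so whether these 2 separations are unusual is not known. Control signals of both genes, 1.0 to 3.8, lay around the offset of 2.71, so their values are among the least firm of the list. When all probe sets were tested without a filter, limma gave Ptp10D a difference of 1.02 with an unadjusted p of 0.0114 and hbs 0.88 with 0.0309, and both had an adjusted p of 0.866. The highest hbs signal fell on ablated 5, the array with the highest muscle and antennal sums. The lowest, 1.1, fell on control 2, whose muscle sum of 653 was the next highest. The part of those tissues in the hbs level was not tested. The flamingo cadherin gene stan (144025_at) overlapped at 3.2, 7.1 and 10.3 in ablated brains and 10.9, 4.2 and 2.5 in control brains.

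For 6 members several probe sets were available, and for 3 of them a dimmer probe set separated the groups where the brightest did not. Of the dimmer probe sets that separated them, only 150820_at reached the level for testing, and all other dimmer ones overlapped. Without a filter, 5.54% of all measured genes lay lower and 5.58% higher without overlap, each read from its brightest probe set. No such share was computed over dimmer probe sets. A member with several of them also had more chances to separate, so whether these separations are unusual is not known. For Ptp99A the next brightest probe set (150820_at) read 9.1, 13.5 and 14.7 in ablated brains and 18, 17.2 and 20.3 in control brains (difference -0.50, SE 0.25), and 151109_at went the other way at 4.2 to 4.9 in ablated and 1.0 to 4.1 in control brains. For trio the dim probe set 147955_at read 2.3, 3.2 and 2.4 in ablated brains and 9.3, 4.7 and 7.0 in control brains. Without a filter its difference was -0.84 with an unadjusted p of 0.0186, while the brighter trio probe set stood at -0.09. For Nrt the dim probe set 142670_at read 7.5, 7.1 and 6.8 in ablated brains and 4.4, 3.7 and 4.8 in control brains, beside no difference in the bright one. The 6 probe sets of side ranged in difference from -0.77 to 0.25, and all had overlapping groups. Which transcripts each probe set detects is not given in the sources used here.

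**Figure D4:**
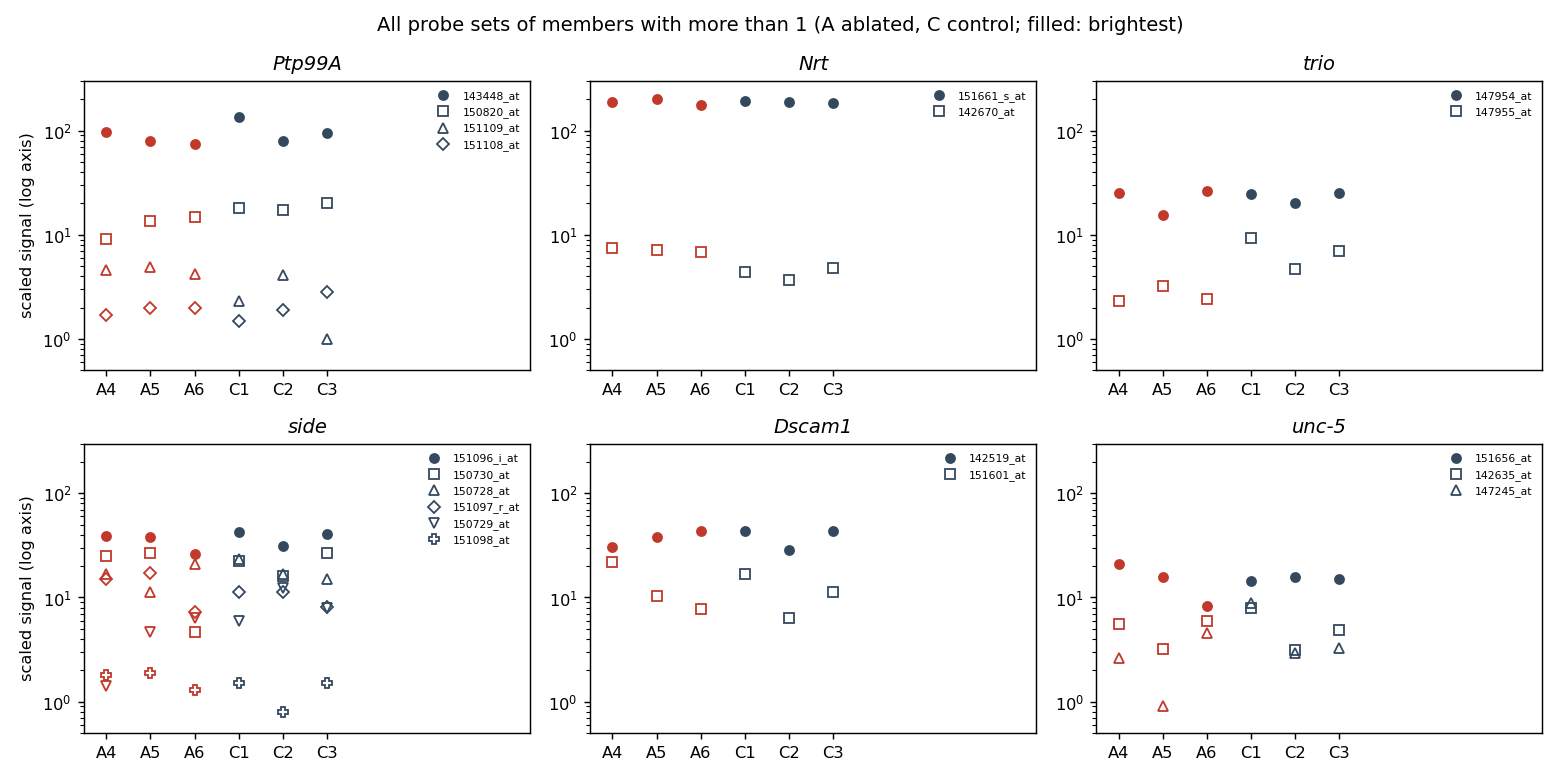
Scaled signal (y axis, log scale) on ablated arrays (A4 to A6, red) and control arrays (C1 to C3, dark blue) for every probe set of the 6 members with more than 1, where filled symbols are the brightest probe set of each gene. The dim probe set of trio is lower and that of Nrt is higher on the ablated arrays, while their bright probe sets overlap between the groups.

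The mean level of the members differed more between arrays of the same group than between the groups. Their mean log2 signal relative to the control mean was 0.12, 0.00 and -0.17 on ablated 4, 5 and 6 and 0.10, -0.13 and 0.04 on control 1, 2 and 3, while all tested genes stayed between -0.01 and 0.03. The lowest array of each group for the members, ablated 6 and control 2, were also lowest in the 3' over 5' ratio of the Gapdh control probe sets, a sign of RNA integrity and labelling. That ratio was 9.38, 10.5 and 7.12 on ablated 4, 5 and 6 and 13.0, 7.18 and 12.7 on control 1, 2 and 3. The same ratio for actin was 12.5, 17.2 and 14.5 on ablated 4, 5 and 6 and 19.4, 13.0 and 17.3 on control 1, 2 and 3, so its lowest ablated array was ablated 4 and not ablated 6. The part of RNA quality in the members' levels was not tested.

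**Figure D5:**
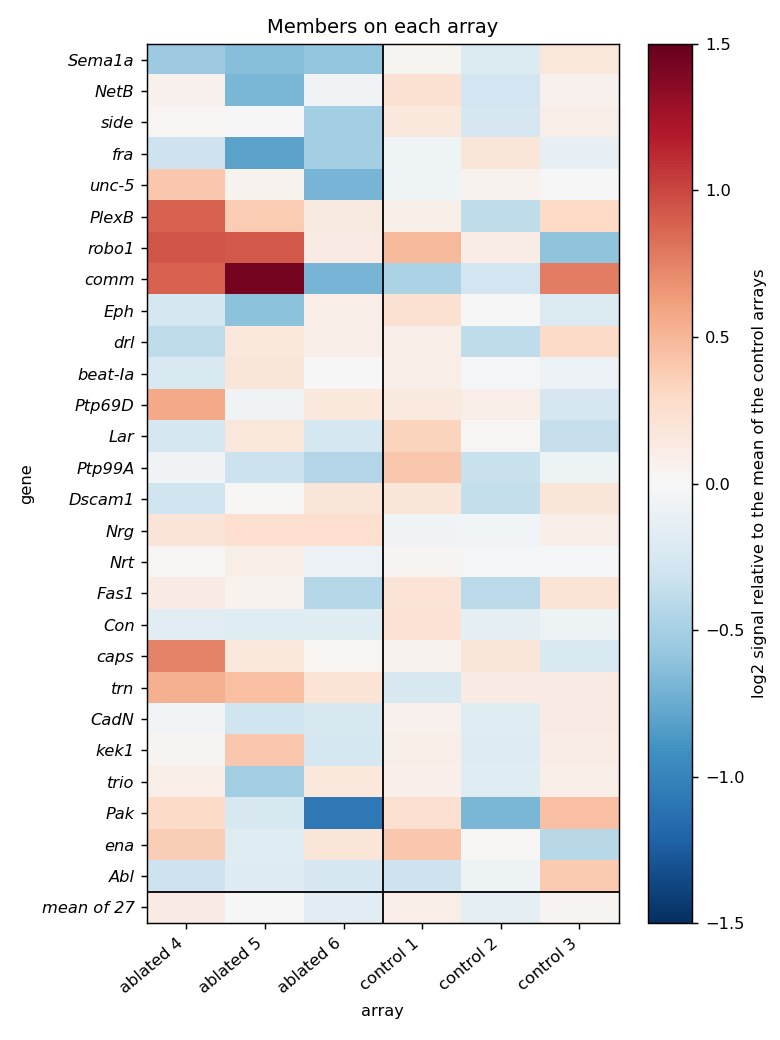
Log2 signal of the 27 tested members (rows) on each array (columns, ablated left of the line and control right), as colour from blue (below) to red (above) relative to the gene's mean on the control arrays, with the mean of the 27 in the last row. Ablated 6 and control 2 hold the lowest means, -0.17 and -0.13.

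Leaving out an array can only add genes without overlap, so the counts were read beside those of all genes. The count of members below grew to 7 of 27 without control 2, where NetB, side, Fas1 and CadN joined, beside 12.4% of all genes in that case. The count above grew to 6 of 27 without ablated 6, where unc-5, PlexB, robo1 and comm joined, beside 10.2% of all genes. Without ablated 5, the array with the most antennal and muscle signal, 3 members lay below and 3 above, the added gene being Ptp69D, beside 10.3% and 9.22% of all genes. In the deposited values without scaling 5 members lay below and 1 above, beside 15.1% and 1.28% of all genes, and the median difference of all genes was -0.17 there.

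Guidance and adhesion genes outside the list were also measured. A further 152 genes of these pathways were listed, 126 were measured and 106 were tested, and 0 passed the adjusted test in limma. At an unadjusted p under 0.05, 4 of the 106 were lower and 4 higher, beside 2.56% and 2.49% of all tested genes. Groups did not overlap for 9 lower genes (8.49%) and 6 higher genes (5.66%), beside 6.47% and 4.69% of all tested genes. The 9 lower genes include Toll-7, which passed the filter through its control arrays. The lower count rose to 19 without control 2, beside 12.4% of all genes in that case. It was 16 without ablated 4 and 14 without ablated 5, beside 12.6% and 10.3% of all genes. The median difference of the 106 was -0.01.

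The 8 genes with an unadjusted p under 0.05 came from several families. DIP-theta (151413_at), an immunoglobulin protein that pairs with Dpr proteins at synapses, read 59.9, 30.8 and 40.5 in ablated brains and 22.2, 23.2 and 28.0 in control brains, a difference of 0.73 (SE 0.24). Nrx-IV (142283_at), a septate junction protein of glia and epithelia, read 31.1, 20.5 and 38.3 in ablated brains and 46.6, 42.1 and 52.1 in control brains, a difference of -0.64 (SE 0.23). In each of the 8 genes the groups did not overlap. The other lower genes were kek2 at -0.49, a relative of kek1, the Toll receptor gene Tl at -0.43 and Abi at -0.39, which encodes a subunit of the Scar actin complex. The other higher genes were Gp150 at 0.57, a leucine-rich repeat protein, beat-VII at 0.53, a relative of beat-Ia, and comm2 at 0.54, a relative of comm. All 8 had an adjusted p of 0.839 (limma).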

How the data were processed

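Total RNA of 6 brain samples was hybridised to Affymetrix Drosophila arrays with a biotin label, per the labels. In the deposited table each probe set has a linear intensity on every array. These values came from MAS5, per the submitters' processing notes, and its settings are not stated there. The deposited arrays differed in overall level (means trimmed by 2% at each end of 40.0, 37.4 and 41.8 for ablated and 49.3, 43.3 and 41.3 for control), so each was scaled to their common mean.

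Of 14010 probe sets, 44 control probe sets were left out. Of the other 13966, 12443 had a single gene, 327 several and 1196 none, and gene identifiers gave current symbols for 12394. The offset is the 20th percentile of signals and the level for testing the 40th percentile of means, which 8380 probe sets reached. The comparison used two-sided limma 3.58.1 (R 4.3.3) with lmFit and an eBayes trend, and the fit was tested on simulated data. The highest share of identical values between 2 arrays was 1.52%. Members, lists and settings were chosen with earlier results of these data known. Array values are given for members whose groups do not overlap, that differ at least 1.5-fold, that have an unadjusted p under 0.05 or that have the smallest p of their role, with partners beside them. Pathway genes outside the list are named at an unadjusted p under 0.05, or without overlap at 1.5-fold or more. Alternatives covered scaling, offset, filter, variance model, probe set per gene and arrays left out. The number of arrays limits the precision.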

Additional observations from a re-analysis of the deposited data

How the results depend on the processing

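The log2 differences of the 8 members named by rule kept their sign, and none passed the adjusted threshold, under every alternative that gave a value. Sema1a ranged from -0.73 to -0.32, fra from -0.69 to -0.37, robo1 from 0.36 to 0.99, trn from 0.23 to 0.55 and Nrg from 0.07 to 0.28. Con ranged from -0.34 to -0.07, Ptp99A from -0.44 to -0.04 and Abl from -0.44 to -0.06. With the filter at the 60th percentile 16 members were tested, and Sema1a, trn and Abl were not among them. Without scaling the members' median difference was -0.22, with 5 below and 1 above. Without overlap, members above numbered 1 of 27 with median-centred arrays, 1 of 16 with the filter at the 60th percentile and 4 of 32 with no filter, beside 3.17%, 4.35% and 5.58% of all genes. With 1 array left out, members below ranged from 3 to 7, members above from 2 to 6, other pathway genes below from 11 to 19 and the members' median from -0.18 to 0.02, beside 9.71% to 13.9% of all genes below and 8.11% to 10.8% above. Without ablated 5 and control 1 together, 5 members lay above and 17 other pathway genes below, beside 16.9% and 18.5% of all genes. Without ablated 6 and control 2 together, an alternative chosen after seeing the data, 9 members lay below, 7 above and 29 other pathway genes below, beside 21.1% of all genes below and 16.3% above. Fewer arrays make overlap rarer by construction. Probe sets called ranged from 0 to 2 with 1 array left out. The 2, both higher, came without control 1 (scaf and an unnamed probe set), and 2 others, CG8306 and EbpIII, without ablated 6 and control 2. These genes were named after their values were seen, and none is a member. No paired analysis was possible because the groups share no replicate number.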

Other observations

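Some synaptic and recognition genes outside the list had narrow separations that the naming rule did not pick, and they were chosen after their values were seen. The gene hig (152930_at), whose product is secreted into the synaptic cleft of cholinergic synapses, read 342, 314 and 341 in ablated brains and 460, 357 and 357 in control brains. Nlg2 (145930_at), a neuroligin of the synapse, read 57.0, 51.6 and 55.4 in ablated brains and 95.2, 62.2 and 62.3 in control brains. In both genes control 1 stood well above the other control arrays, and the log2 differences were -0.22 (SE 0.14) and -0.38 (SE 0.19). DIP-alpha (144446_at), another partner of Dpr proteins, read 25.0, 23.3 and 23.9 in ablated brains and 21.6, 20.2 and 21.0 in control brains. The receptor gene beat-IIb (150061_at) read 52.1, 59.8 and 56.5 in ablated brains and 49.0, 43.2 and 48.7 in control brains. DIP-alpha and beat-IIb lay above the control arrays on every ablated array, with differences of 0.18 (SE 0.18) and 0.25 (SE 0.15). Alk, Toll-7 and cno, at -0.19, -0.52 and -0.20, were the other genes below without overlap. The filter let Toll-7 in through its control arrays (mean 8.12 in ablated and 12.2 in control brains). Its highest ablated and lowest control arrays read 11.5 and 11.6.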
